A study of Rattus norvegicus with 8 samples.

Results

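Pmch and Hcrt encode the precursors of the peptides that mark the lateral hypothalamus, melanin-concentrating hormone (MCH) and orexin. Whole transcriptome termini site sequencing (WTTS-seq), which counts reads at the 3′ ends of polyadenylated RNA, was read here for these 2 genes in rat hypothalamus. Every polyadenylation site whose assigned symbol was Pmch or Hcrt was taken, which gave 5 of 73922 sites and 2 of 12255 genes, with 4 sites for Pmch and 1 for Hcrt. The tissue came from 8 adult male Long-Evans rats. The 4 control rats were kept on standard chow with 0.51 kcal/g from fat, and the 4 rats labelled diet-induced obesity had free access to a high fat diet with 1.71 kcal/g from fat, both for 36 days. No genotype is given in the labels, and body weight was not among the values analysed here. The article attached to the series concerns another exposure, so the groups are those of the labels and no result rests on it.

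Pmch is translated into pro-MCH, which is cut into MCH and further peptides in neurons of the lateral hypothalamus and the zona incerta. MCH acts on the G protein-coupled receptor Mchr1 and is known for promoting feeding, weight gain and sleep. Hcrt is translated into prepro-orexin, the source of orexin A and orexin B (also called hypocretins), made by a neighbouring but separate set of neurons that sustain wakefulness and drive reward seeking and food seeking. Orexin A binds Hcrtr1 and Hcrtr2, while orexin B binds mainly Hcrtr2.

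Levels are given in CPM, the reads of a gene per 1000000 gene reads of its library after TMM scaling. The libraries held 1417531 to 1957726 reads, with a median of 57 reads per site summed over the 8 libraries. Of 14 genes fixed as markers of hypothalamus, 8 were measured (Avp, Oxt, Pomc, Agrp, Crh, Trh, Sim1 and Nkx2-1), and their summed level was 936 to 1330 CPM in control and 739 to 922 CPM in obesity. Most of this sum was Avp, at 976 ± 175 CPM in control and 720 ± 90.3 CPM in obesity (SD, n = 4), while 4 of the 8 had higher and 4 lower values in obesity. Sim1, a transcription factor of the paraventricular nucleus, differed by 2.03 on the log2 scale (SE 0.82, edgeR p 0.0243, adjusted 0.921). Of 7 anterior pituitary markers 3 were measured. They summed to 17.9 to 56 CPM in control and 6.13 to 127 CPM in obesity. Of 8 midbrain dopamine neuron markers 4 were measured, and Slc6a3, En1, Pitx3 and Foxa1 were not. The 4 summed to 47.5 to 77.9 CPM in control and 17.7 to 58 CPM in obesity. Whether their reads came from midbrain cells was not tested. Of the dopamine genes Th, tyrosine hydroxylase, had 68, 46, 47 and 52 reads in control and 12, 12, 47 and 2 in obesity. The log2 difference of Th was -1.69 (SE 0.55, edgeR adjusted p 0.921, or 0.088 with the library number as a block). Of these 4 genes 1 was higher and 3 lower in obesity. Slc18a2 differed by 0.59, Ddc by -0.2 and Nr4a2 by -2.1 on the log2 scale (edgeR adjusted p 0.942, 0.991 and 0.921). Gh1, growth hormone, had 87 reads in obesity library 2 and 0 or 1 elsewhere (edgeR p 0.0379, adjusted 0.921). In that library the pituitary genes Lhb and Cga had 58 and 11 reads, and Cga had 71 in control library 1 and in obesity library 3. Of these 3 pituitary genes 2 were higher in obesity and 1, Cga, was lower. Thalamus markers (6 measured of 9) summed to 293 to 422 CPM in control and 255 to 385 CPM in obesity. Oligodendrocyte markers (11 of 11) summed to 17600 to 23100 and 13600 to 21400 CPM, and astrocyte markers (10 of 10) to 4790 to 7180 and 4230 to 6280 CPM. In obesity 1 oligodendrocyte marker was higher and 10 lower (median log2 difference -0.183). Of the astrocyte markers 3 were higher and 7 lower (median -0.215). Ugt8, Mal and Aldoc were lower at an unadjusted p under 0.05 (edgeR), as were 2.58% of all genes. They differed by -1.11, -0.42 and -0.53 on the log2 scale, each with an edgeR adjusted p of 0.921. For choroid plexus 1 of 5 markers was measured, Ttr, at 0 to 1.52 CPM in control and 0 to 98 CPM in obesity. The lists hold no marker of the lateral part of the hypothalamus other than the genes studied, and the part of dissection in any value below was not tested.

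For both peptide genes the group means differed by less than the spread between libraries. Pmch averaged 161.7 ± 28.7 CPM in control and 151.3 ± 27.9 CPM in obesity (SD, n = 4). Hcrt averaged 13.6 ± 6.8 CPM in control and 12.6 ± 6.24 CPM in obesity (SD, n = 4). Neither passed the threshold of an adjusted p under 0.1, and the data bounded a change of Pmch more tightly than one of Hcrt. In bulk tissue, fewer cells of a type and less RNA per cell cannot be told apart, which holds for every level given here.

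Pmch had 174, 249, 237 and 216 reads in control libraries 1 to 4, or 123, 167, 193 and 164 CPM. In obesity libraries 1 to 4 it had 165, 203, 314 and 195 reads, or 124, 165, 184 and 133 CPM. The groups overlapped almost completely, with the lowest value in a control library and the highest in another. The log2 fold change was -0.09 (SE 0.22), with a 95% interval from -0.56 to 0.37 (edgeR quasi-likelihood test, adjusted p 0.99 over all genes). On the linear scale this interval runs from 0.679 to 1.29 times the control level. With the library number as a block it runs from 0.737 to 1.19 times. The exact 2-sided permutation test of the mean log2 level over the 70 arrangements of the libraries gave p = 0.686, where 0.0286 is the smallest value it can reach. The permutation tests of level, site share and ratio given here do not keep libraries of the same number together.

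Libraries that carry the same number in the labels had similar Pmch levels in both groups. The libraries numbered 1 were the lowest of their groups, and those numbered 3 the highest. The log2 ratio of obesity to control was 0.008 for number 1, -0.016 for number 2 and -0.067 for number 3. It was -0.307 for number 4, where Pmch was at 164 CPM in control and 133 CPM in obesity. The labels do not say what a shared number stands for.

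Hcrt was about an order of magnitude scarcer and more variable. It had 12, 22, 28 and 11 reads in control libraries 1 to 4, or 8.5, 14.7, 22.8 and 8.36 CPM. Its counts in obesity 1 to 4 were 9, 16, 16 and 31, or 6.76, 13, 9.37 and 21.1 CPM. Each group held 1 library above 20 CPM, control 3 and obesity 4, and the groups overlapped over nearly their whole range. The log2 fold change was -0.11 (SE 0.53), with a 95% interval from -1.22 to 1 (edgeR adjusted p 0.993; exact 2-sided permutation p 0.8, n = 4 per group). A level anywhere from 0.43 to 2 times that of control lies within this interval, so these libraries do not separate a moderate change of Hcrt from none. With the library number as a block the interval runs from 0.437 to 1.93 times. The same-numbered libraries did not resemble each other as they did for Pmch, with log2 ratios of -0.33, -0.181, -1.28 and 1.34 for numbers 1 to 4.

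The spread between libraries was set against that of read counting. At the mean read numbers of the groups, counting alone gives a coefficient of variation of 6.76% in control and 6.75% in obesity for Pmch, against observed values of 17.7% and 18.5%. For Hcrt counting gives 23.4% and 23.6%, and the observed values were 50.1% and 49.7%. The observed spread between libraries was above the counting value for both genes. How much of it lies between rats and how much in library preparation was not tested, and for Pmch it followed the library number across both groups. The highest library exceeded the lowest by 1.56 times for Pmch and by 3.37 times for Hcrt.

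**Figure D1:**
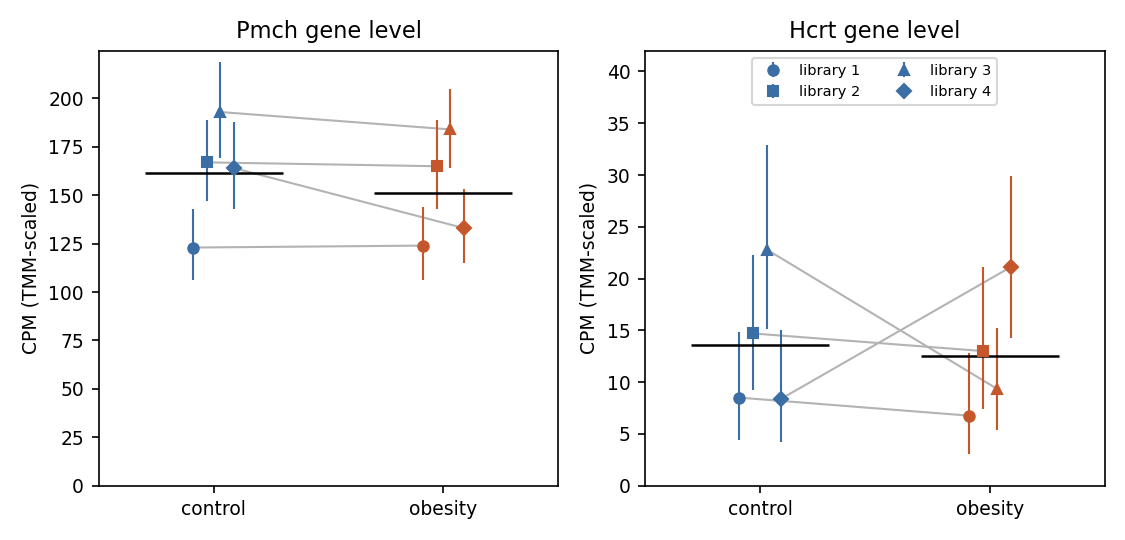
Gene level of Pmch (left) and Hcrt (right) in CPM for each control and obesity library. Vertical bars are exact 95% Poisson intervals of the read count, black lines are group means, and grey lines join libraries of the same number; Pmch group means are 161.7 and 151.3 CPM and Hcrt means 13.6 and 12.6 CPM, with overlapping groups for both.

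No gene of the table passed the threshold in the fit used here. Of 12255 genes, edgeR called 0 (0.0%) at an adjusted p under 0.1, while 627 (5.12%) were under 0.05 without adjustment and the DESeq2 Wald test called 4. With the library number as a block, edgeR called 34 genes (0.277%), 4 sites (0.00541%) and the site use of 1 gene (0.0125%), and neither Pmch, Hcrt nor any of their sites was among them. The unadjusted p was 0.675 for Pmch and 0.838 for Hcrt.

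The 4 Pmch sites lay within about 1 kb on the plus strand of chromosome 7 (Rnor_6.0), and 2 of them held most reads. Site 1 (28655442 to 28655530) held 854 reads, or 48.7% of all Pmch reads, and its reference position was 1014 bases before that of the most 3′ site. Site 4 (28656496 to 28656535), the most 3′, held 737 reads, or 42%. Between them, site 2 (28655958 to 28655987) held 124 reads (7.07%) and site 3 (28656360 to 28656379) held 38 (2.17%). Hcrt had a single site on the minus strand of chromosome 10 (88669201 to 88669214) with 145 reads. An annotation of this build was not used here, so the sites were not placed in exons, introns or UTRs, and whether A-rich sequence within the transcript primed any of them was not tested. Parpbp, which overlaps Pmch on the opposite strand in mammals, had no site in the table used, so its reads could not be set beside those of Pmch.

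At site 1 the control libraries 1 to 4 had 66, 167, 117 and 125 reads, against 69, 84, 157 and 69 in obesity. Control 1 stood with the lower obesity libraries and obesity 3 with the higher controls, so the groups overlapped. Scaled to the reads of all sites, site 1 was at 75.4 ± 26.1 CPM in control against 53.8 ± 19.4 CPM in obesity (SD, n = 4). The fitted log2 difference was -0.48 (SE 0.38; edgeR p 0.228 before and 1 after adjustment). Site 4 had 65, 69, 108 and 82 reads in control, against 65, 113, 122 and 113 in obesity. It averaged 52.4 ± 19.5 CPM in control against 60 ± 17.2 CPM in obesity (SD, n = 4), and the fitted log2 difference was 0.2 (SE 0.37; edgeR p 0.603 before and 1 after adjustment). Over the whole table, 1 of 73922 sites (0.00135%) was called at 0.1 after adjustment, and 2320 (3.14%) were under 0.05 before it. The Hcrt site differed by -0.18 on the log2 scale (SE 0.56), at 11.8 ± 6.42 CPM in control and 10.4 ± 5.25 CPM in obesity (SD, n = 4; edgeR adjusted p 1).

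As a share of Pmch reads, site 1 took 37.9%, 67.1%, 49.4% and 57.9% in the 4 control libraries, and 41.8%, 41.4%, 50% and 35.4% in those of obesity. Site 4 took 37.4%, 27.7%, 45.6% and 38% in control and 39.4%, 55.7%, 38.9% and 57.9% in obesity. Site 1 held more reads than site 4 in 4 of 4 control libraries, though with 66 against 65 in control 1, while site 4 was the larger in 2 of 4 obesity libraries, those numbered 2 and 4. Site 1 averaged 53.1% ± 12.4 of the reads in control against 42.2% ± 6 in obesity (SD, n = 4), which differ by -10.9 percentage points (exact 2-sided permutation p 0.2, 0.4 adjusted over the 4 sites). The mean share of site 4 was 37.2% ± 7.32 and 48% ± 10.3 (SD, n = 4), which differ by 10.8 percentage points (exact 2-sided permutation p 0.143, adjusted 0.4). Neither difference passed its test.

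Control libraries differed among themselves in site use by more than read counting. The exact binomial 95% interval of the site 1 share ran from 60.9% to 72.9% in control library 2 and from 30.7% to 45.6% in control library 1. Such intervals cover counting error only, since the reads were amplified by PCR and no molecular identifiers are named in the labels. The test of site use within genes (edgeR diffSpliceDGE, Simes p) gave 0.638 for Pmch and an adjusted p of 1. It called 0 of 7996 genes (0.0%) at an adjusted p under 0.1 and 109 (1.36%) at an unadjusted p under 0.05. Hcrt, with 1 site, could not show such a change.

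The minor sites were used most in the libraries numbered 1. Sites 2 and 3 together took 24.7% of Pmch reads in control library 1 and 18.8% in obesity library 1. In the other control libraries they took 4.17% to 5.22%, and in the other obesity libraries 2.96% to 11.1%. Site 3 had 0 of 195 Pmch reads in obesity library 4, which allows a share of up to 1.54% taken as 3 reads of the total, and up to 1.87% by the exact binomial 95% interval. The libraries numbered 1 were also those with the most sites at 0 reads, 14788 in control and 10659 in obesity against 4062 to 6622 elsewhere, and the part of this in the site shares was not tested.

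**Figure D2:**
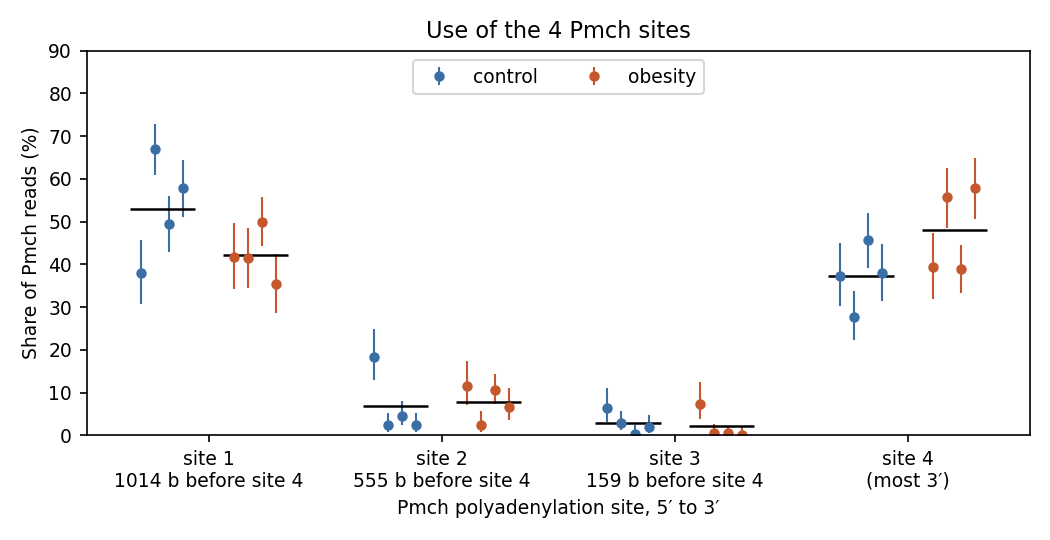
Share of Pmch reads (%) at each of the 4 Pmch sites, from 5′ to 3′, for control and obesity libraries 1 to 4 (left to right within each group). Bars are exact 95% binomial intervals and black lines group means; site 1 averages 53.1% in control and 42.2% in obesity, site 4 37.2% and 48%, and the groups overlap at every site.

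Among the peptide precursor genes measured, Pmch was one of the highest in CPM, and Hcrt was in the middle of the range. Of 31 other precursor genes fixed in a list, 18 were measured, which with Pmch and Hcrt made 20. Those not measured, among them Npy, Tac3, Vip and Ghrh, had no site assigned to them in the counts used. The ranks below therefore hold only among these 20. Because WTTS-seq counts transcript ends, levels were compared as CPM without division by transcript length. Over all 8 libraries Pmch ranked 2 of 20 at 156 ± 26.8 CPM (SD, n = 8), and 1120 of 12255 among all genes. The gene above it was Avp, the vasopressin precursor, at 848 ± 188 CPM, whose lowest library (608 CPM) exceeded the highest of Pmch (193 CPM). Below it came Cartpt, which encodes the CART peptide that many MCH neurons also make, at 155 ± 23.9 CPM, and Penk, the enkephalin precursor, at 105 ± 25.3 CPM. The Cartpt range of 123 to 187 CPM coincided with that of Pmch, and that of Penk (63.3 to 136 CPM) overlapped it, so the order of Pmch and Cartpt is not resolved by these libraries.

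Hcrt ranked 11 of 20 at 13.1 ± 6.07 CPM (SD, n = 8), and 7480 of 12255 among all genes. Its neighbours were Adcyap1 (the PACAP precursor) at 16.6 ± 14.1 CPM and Tac1 (substance P) at 15.1 ± 5.97 CPM above, and Trh (thyrotropin-releasing hormone) at 12.2 ± 3.01 CPM and Agrp (agouti-related peptide) at 12.1 ± 11.5 CPM below. All 4 overlapped Hcrt in range, so its position among them is not resolved. With both groups pooled, Pmch was also among the steadiest of the 20. Its coefficient of variation was 17.1%, and only that of Cartpt was lower, at 15.4%. That of Hcrt was 46.4%, rank 12 from the lowest, and low read numbers raise this measure. A difference between the groups raises it too.

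**Figure D3:**
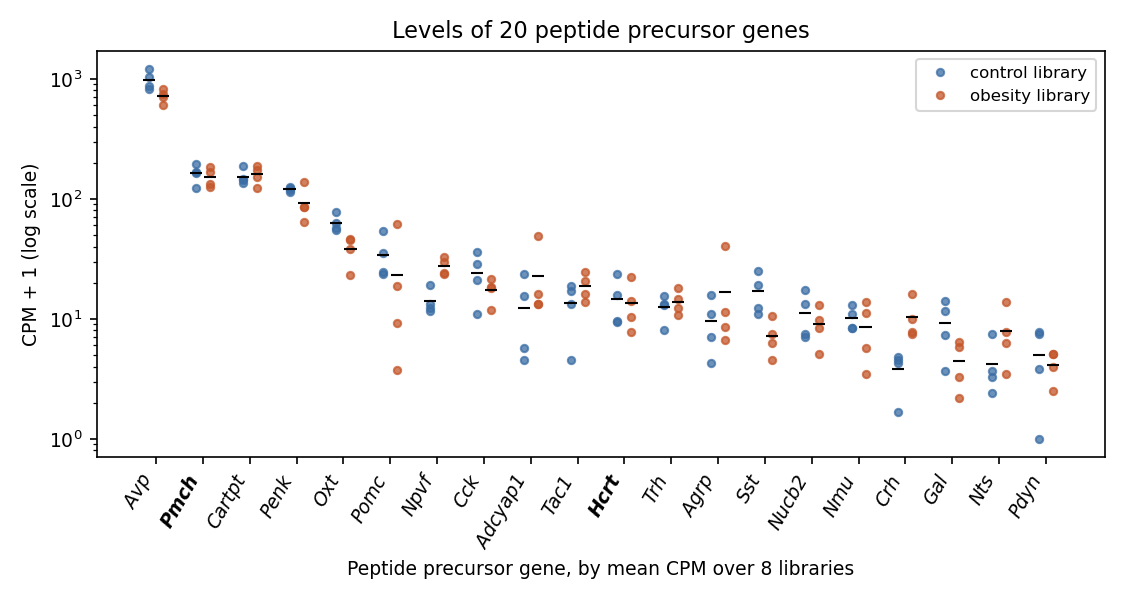
Level of 20 peptide precursor genes in CPM + 1 (log axis), ordered by mean over 8 libraries, with 1 point per library and a black line at each group mean. Pmch lies second at 156 CPM beside Cartpt at 155 CPM, and Hcrt lies eleventh at 13.1 CPM.

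Pmch reads outnumbered Hcrt reads in every library. There were 14.5, 11.3, 8.46 and 19.6 Pmch reads per Hcrt read in controls 1 to 4, against 18.3, 12.7, 19.6 and 6.29 with obesity. The geometric mean was 12.9 in control and 13 in obesity. This ratio within a library needs no scaling factor. On the log2 scale it averaged 3.68 ± 0.52 in control against 3.7 ± 0.75 in obesity (SD, n = 4), 0.02 apart (exact 2-sided permutation p 0.971). The highest ratios of the groups, in control 4 and obesity 3, were alike, and the lowest occurred where Hcrt was highest, in control 3 and obesity 4.

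Pmch and Hcrt did not track each other clearly over the 8 rats. Pearson's r of log2 CPM was 0.388 (exact permutation p 0.33, n = 8) and Spearman's rho 0.595 (exact permutation p 0.132), for the 1 pair of genes compared. The values of a library share its dissection and depth. Both genes were low in the libraries numbered 1, where control 1 had 123 CPM of Pmch and 8.5 of Hcrt and obesity 1 had 124 and 6.76. Without these, which lay farthest from the median of Pmch, r was -0.205 (exact permutation p 0.71, n = 6) and rho 0.257 (exact permutation p 0.658). The sign of r thus changed while that of rho did not. Leaving out these libraries narrows the range of Pmch, which by itself can change r. Without control library 1 alone r was 0.282, and without obesity library 1 alone it was 0.176. Taken as deviations from group means, r was 0.379 (exact permutation p 0.377 within groups). As deviations from the mean of each library number it was -0.545 (exact permutation p 0.875). This value holds only 4 independent differences, for which the smallest p is 0.125. Without obesity library 4, the library with much Hcrt and little Pmch, r was 0.705 (exact permutation p 0.0887, n = 7) and rho 0.786 (exact permutation p 0.048), 1 of 8 such omissions and not adjusted for them.

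**Figure D4:**
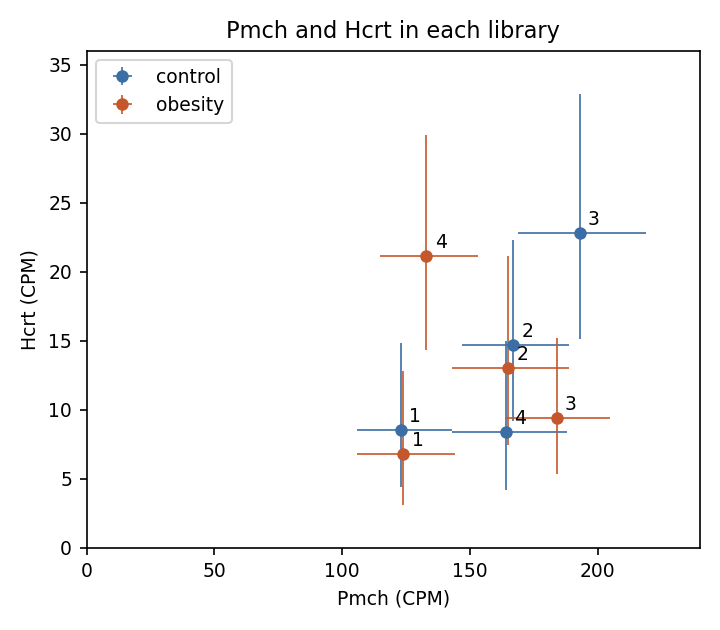
Hcrt against Pmch level (CPM) in each library, numbered as in the labels, with exact 95% Poisson intervals of the counts on both axes. Control 1 and obesity 1 lie lowest on the Pmch axis, control 3 is high on both, and obesity 4 combines 133 CPM of Pmch with 21.1 CPM of Hcrt.

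Among 8301 other genes with a mean of 10 CPM or more, those most like Pmch over the 8 libraries were Ergic3 and Mia3, which act in transport between endoplasmic reticulum and Golgi, Gnb1, a G protein beta subunit, and Nanos1 and Hdhd2. Their Pearson r with Pmch was 0.97, 0.967, 0.964, 0.961 and 0.96, and 48 genes had an r above 0.9. Those most like Hcrt were Kifc3, a minus-end directed kinesin, at 0.936, Lamp2, a lysosomal membrane protein, at 0.927, Ppfibp2 at 0.927, LOC102552725 at 0.906 and Sms, spermine synthase, at 0.894, and 4 genes had an r above 0.9. With 8 libraries and so many genes, these values are a description only.

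The receptors were sparse. Of 4 listed receptor genes 3 were measured, and 0 passed the threshold in either direction (edgeR; 0 at an unadjusted p under 0.05; 0 by the DESeq2 Wald test). Mchr2, the receptor that rodents lack, was not among them. Mchr1 had 15, 3, 3 and 7 reads in control and 2, 3, 0 and 1 in obesity. It was lower on average in obesity, at 5.1 ± 3.97 against 1.15 ± 1.05 CPM (SD, n = 4), but the groups met at 3 reads. Its log2 fold change was -2.12 (SE 1.12, edgeR adjusted p 0.921, unadjusted p 0.0746) and -1.48 without control library 1, which held most of the control reads.

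Hcrtr1 had 18, 5, 13 and 10 reads in control and 4, 8, 25 and 12 in obesity, and its log2 fold change was -0.07 (SE 0.64; edgeR adjusted p 0.997). Hcrtr2 had 9, 12, 3 and 13 reads in control and 11, 14, 11 and 10 in obesity (log2 fold change 0.29, SE 0.62; edgeR adjusted p 0.988). Its reads came from 2 sites on the minus strand of chromosome 8. The upstream site (83407632 to 83407663), chosen for mention after its values were seen, had 3, 4, 3 and 4 reads in control and 10, 9, 9 and 10 in obesity, without overlap. In CPM, 3.11% of all sites had groups without overlap and 1.43% did so with obesity higher, and the log2 fold change here was 1.29 (SE 0.74, edgeR adjusted p 1, unadjusted p 0.1). The downstream site (83310775 to 83310790) had 6, 8, 0 and 9 reads in control and 1, 5, 2 and 0 in obesity (log2 fold change -1.46, SE 1.24; edgeR adjusted p 1). The test of site use in Hcrtr2 gave an adjusted p of 1 (Simes p 0.261).

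No gene of the list fixed for MCH neurons was called. All 9 listed were measured and 0 passed (edgeR; 0 at an unadjusted p under 0.05; 0 by DESeq2), with 6 higher and 3 lower and a median log2 fold change of 0.06, against 0.0007 over all genes. Cartpt, which had 202, 202, 228 and 191 reads in control and 202, 213, 320 and 180 in obesity, had a log2 fold change of 0.06 (SE 0.22), with a 95% interval from -0.39 to 0.51. Tacr3, the neurokinin B receptor, had one of 0.36 (SE 0.43), and Gad1, which makes GABA, one of 0.01 (SE 0.4). The one with the smallest unadjusted p, 0.101, was Slc32a1, the vesicular GABA transporter, at 178 ± 68.9 CPM in control and 128 ± 11.6 CPM in obesity (SD, n = 4; log2 fold change -0.48, SE 0.27, edgeR adjusted p 0.923). Slc32a1 and most other members are expressed by many other hypothalamic neurons, and whether MCH neurons express Slc32a1 was not tested.

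Of 7 genes known in orexin neurons, 3 were measured and 0 passed (edgeR; 0 at an unadjusted p under 0.05; 0 by DESeq2), with 1 higher and 2 lower and a median log2 fold change of -0.32. Pdyn, the dynorphin precursor that orexin neurons release together with orexin, had 4, 10, 8 and 0 reads in control and 2, 5, 5 and 6 in obesity. Its log2 fold change was -0.34 (SE 1.02), with a 95% interval from -2.5 to 1.81 that leaves nearly any moderate change possible. Vgf, a granin-like secretory protein, had 121 reads in control library 4 and 254 in obesity library 4, against 4 to 43 reads in the other 6 libraries. Both libraries numbered 4 thus stood above the rest whatever their group. The other member measured was Slc17a6, a vesicular glutamate transporter that the list for MCH neurons also holds, with a log2 fold change of -0.32 (SE 0.92).

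The machinery that cuts and packs such precursors also showed no called member. Of 11 genes listed 8 were measured, 5 higher and 3 lower, and 0 passed (edgeR; 0 at an unadjusted p under 0.05; 0 by DESeq2), with a median log2 fold change of 0.06. Pcsk2, the prohormone convertase known to act on pro-MCH, was at 87.7 ± 11.5 CPM in control and 99.4 ± 14.2 CPM in obesity (SD, n = 4; log2 fold change 0.18, SE 0.23). Cpe, the carboxypeptidase that trims the cut ends, had a log2 fold change of 0.24 (SE 0.21), and Pam, which amidates peptides such as the orexins, one of -0.01 (SE 0.27).

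**Figure D5:**
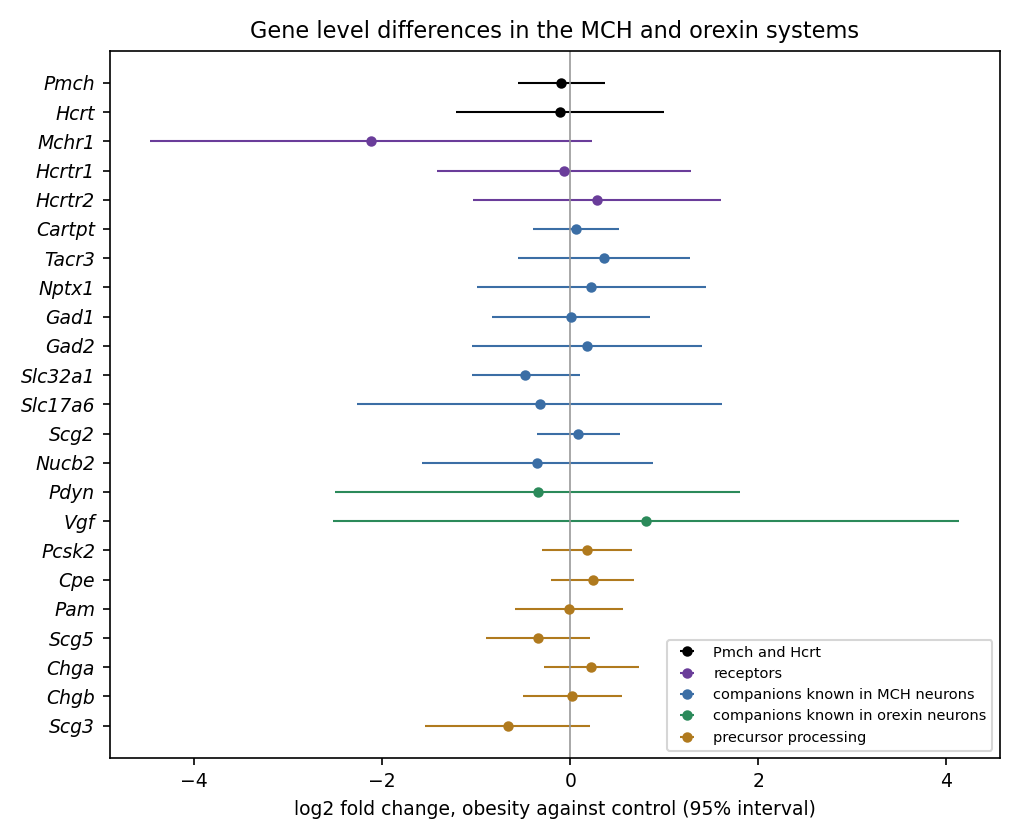
Log2 fold change of obesity against control with its 95% interval (edgeR, gene level). Shown are Pmch, Hcrt, their receptors, genes listed for MCH or orexin neurons and precursor processing genes. Intervals of all genes shown include 0, and that of Pmch (-0.56 to 0.37) is narrower than that of Hcrt (-1.22 to 1).

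Among the 18 other peptide precursors, 2 were higher and 3 lower at an unadjusted p under 0.05, against 2.54% and 2.58% of all genes, and 0 passed the adjusted threshold (edgeR; 0 by DESeq2). Avp, Oxt and Sst had log2 fold changes of -0.44, -0.74 and -1.36, and Npvf and Crh of 1.03 and 1.72, each with an edgeR adjusted p of 0.921. The 95% intervals of Pmch and Avp overlapped, since that of Avp ran from -0.84 to -0.04, and whether their fold changes differ was not tested. The median over the 18 was -0.31.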

How the data were processed

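The members and gene lists were chosen with earlier results of these data known. The authors deposited unnormalized counts of reads mapped to each polyadenylation site. Per the labels, libraries were made from total RNA by fragmentation, poly(A)+ enrichment, reverse transcription, size selection and PCR, and the submitters' processing notes name Bowtie2 2.2.3 and Rnor_6.0. Site calling and gene assignment are not given in the sources used here. The lowest site total was 30 reads, so the minimum of 16 used here removed 0 sites. A line with only a column total (1) was dropped, and 273 sites with a mark in place of a gene were treated as having none.

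Gene counts were sums over the sites on the strand with most reads. Genes and sites were fitted over the whole table with edgeR 4.0.16 (robust quasi-likelihood test, TMM, R 4.3.3) and Benjamini-Hochberg adjustment at 0.1; DESeq2 1.42.0 was an alternative. Standard errors are the absolute log2 fold change over the root of F. Correlations used a prior of 0.5 reads. Permutation tests used scipy 1.17.1. The fits were tested on simulated data with changes larger than those estimated for Pmch and Hcrt. Whether smaller changes could be found was not tested.

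Named were Pmch, Hcrt, the receptors, list members with an unadjusted p under 0.05, neighbours in level and the 5 genes most alike; other members are examples chosen after their values were seen, and 1 listed gene is not reported here. Deviations from group means correlated at 0.26 to 0.376 between same-numbered libraries, over 0.1 in all 4 pairs, and same-numbered libraries were therefore treated as pairs in the blocked fit, although no label explains the numbering. No 2 libraries agreed within sampling noise (lowest chi-square per site 2.86). The series design names 8 rats for 8 libraries.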

Additional observations from a re-analysis of the deposited data

Results flagged for a closer look

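Dixon's test was run on the 4 libraries of each group for the levels of Pmch, Hcrt and their receptors, for the Pmch sites and for the ratio of both genes. It marked the highest or lowest library in 3 of 28 cases, where 28 independent checks would give about 1.4. The checks were not independent, as the CPM and the share of a site come from the same reads. Whether 3 exceeds chance was therefore not tested. All 3 cases concern the minor Pmch sites in libraries numbered 1. In control library 1, Pmch site 2 held 18.4% of Pmch reads, against 2.31% to 4.64% in the remaining controls. In obesity library 1, Pmch site 3 was at 6.79 CPM, against 0 to 1.01 CPM, and held 7.27% of Pmch reads, against 0% to 0.637%.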

How the results depend on the processing

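Neither Pmch nor Hcrt was called by any of the 14 alternative fits, whose lowest adjusted p was 0.897 for Pmch and 0.966 for Hcrt. Leaving out 1 library at a time moved the log2 fold change of Pmch from -0.204 to 0.00621 and that of Hcrt from -0.463 to 0.253. Pmch turned positive without control library 3 (0.00621), and Hcrt without control library 3 (0.253), obesity library 1 (0.0939) or obesity library 3 (0.0178). The Hcrt site (range -0.54 to 0.224) did so too without control library 3 (0.224) or obesity library 1 (0.0371). Pmch site 2 (-0.191 to 0.963) turned negative without control library 2 (-0.0498), control library 4 (-0.0505) or obesity library 3 (-0.191). Hcrtr1 (-0.524 to 0.203) turned positive without control library 1 (0.194) or 3 (0.0456), or obesity library 1 (0.203) or 2 (0.0247). The difference in the log2 ratio of Pmch to Hcrt ranged from -0.182 to 0.368, and was negative without control library 2 (-0.0426) or 3 (-0.182) or obesity library 1 (-0.146) or 3 (-0.179). The correlation of both genes ranged from 0.132 to 0.705 and was -0.205 without the 2 libraries farthest in Pmch and -0.545 as deviations from number means. The cause of these reversals was not tested. With the library number as a block, the log2 fold changes were -0.0954 for Pmch and -0.124 for Hcrt, with adjusted p-values of 0.9 and 0.966, and the pairing changed no call of the members or their sites. The lists of receptors, companions, processing genes and other precursors had 0 called genes with the block, by DESeq2 and without any 1 library. Among the marker lists the block called 1 gene, Th (adjusted p 0.088, against 0.921 without the block). Over all genes, 0 were called, against 34 with the block, 4 by the DESeq2 Wald test and 1 without obesity library 2. Without that library 1191 genes had an unadjusted p under 0.05, against 627. The filter of edgeR on low counts left out Mchr1 and Pmch site 3. Hcrt had 9 to 31 reads per library, Mchr1 0 to 15 and Pmch site 3 0 to 12, so their values carry wide counting error.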
